A study of Populus tremula x Populus alba with 64 samples.

Results

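The gene with identifier 7494763 is annotated as beta-amylase 1, chloroplastic, an enzyme of starch breakdown, and its transcript was followed through poplar roots and stems at 24 h and at 11 days. It is 1 of 37173 gene identifiers in the files and has a single row of counts. The gene was singled out by the study from the change under auxin enhancers (AE) in 11-day roots, so the difference between AE-roots and control-AE roots of 11 days is a description here and carries no test. The comparisons of tissues, of times and of the other treatments did not enter that choice. The AE-root and control-AE root libraries of 11 days do enter 4 comparisons, over all arms or within the AE and control-AE groups, namely root minus stem at 11 days, the change with time in roots, the interaction of tissue and time, and the comparison of the control arms in 11-day roots, and the last of these is given without a test.

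The plants were leafy cuttings, 4-5 weeks old when spraying began, from 1 hybrid clone, INRA 717-1B4, of Populus tremula x Populus alba, so every group shares a single genotype. Leaves were sprayed with AE, a mix of 3 µM 1-naphthaleneacetic acid (NAA) and 4.5 µM indole-3-butyric acid (IBA), or with 100 µM naphthylphthalamic acid (NPA), an auxin inhibitor (AI) that slows the movement of auxin from cell to cell. Each treatment had its own control arm, control-AE and control-AI, sprayed with the solvent, 1 N KOH, which AE- and AI-plants received as well. The 4 arms, 2 tissues and 2 times form 16 groups of 3 to 6 deposited libraries, with polyadenylated RNA from stem or root tissue in each. Per the study's methods, plants for molecular work were harvested 4-5 hours after dawn. The methods describe spraying over 11 days in volumes that rose, and do not mention a harvest at 24 h.

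Starch is stored in plastids and its breakdown feeds sugars to growth, in leaves at night and in stems and roots from reserves. Beta-amylases act at the ends of starch chains and release maltose, which leaves the plastid and is turned into glucose and sucrose in the cytosol. In Arabidopsis thaliana, BAM1 is a plastid enzyme that is activated by thioredoxin and works in guard cells and under osmotic stress, while BAM3 carries most of the nightly breakdown in leaves. Plants hold several beta-amylase genes, and some of their proteins have lost catalytic activity. Whether the poplar protein shares the roles of its Arabidopsis namesake was not measured.

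The transcript XM_024607720.1 lies on the plus strand of RefSeq sequence NC_037292.1 between positions 11882919 and 11885747, in the coordinates of the files. The study's methods name a Phytozome release of the Populus trichocarpa genome, while the deposited counts carry RefSeq names. No source used here names the RefSeq build. Its exons of 754, 211, 111 and 1149 bases add up to the 2225 bases over which reads were counted. No other row overlapped it. The nearest gene on the same strand began 1375 bases downstream, and the nearest upstream one ended 6219 bases away. Whether reads of other beta-amylase genes could be counted on this row was not checked.

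Of the 64 libraries, the 50 with at least 1000000 counts were used, and they held 3947526 to 21094004 counts (median 11322818). The 14 others held 93182 to 545250 counts, so no library lay near the minimum. The sample labels describe 14 libraries as low in depth, and for 2 of the control-AE 11-day root libraries the label was the reverse of the total. Rows annotated for chlorophyll a-b binding protein, photosystem I and the small chain of ribulose bisphosphate carboxylase, 8 in all, summed to 10.7 to 108 CPM (counts per 1000000 counts of the library) in the root libraries and to 1021 to 2613 CPM in the stem libraries, so the tissue labels held in every library used. No root marker of the list was among the rows with a product name. Large-subunit ribosomal RNA took 7.59% of the counts in control-AE 11-day stem replicate 1, 11.4% in control-AI 11-day stem replicate 2 and 22.1% in AE 11-day stem replicate 5, and at most 0.503% in the other libraries used. The study calls its replicates biological, but the labels do not say which came from separate plants, so p-values measure the spread between these libraries.

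In 24 h roots, beta-amylase 1 was at a moderate and variable level. The control-AE roots had 21.3, 23.9 and 23.7 CPM in replicates 1 to 3, a mean of 23.0 ± 1.42 CPM (SD, n = 3). The AE-roots had 18.4 and 29.9 CPM in replicates 1 and 2 and 49.9 CPM in the library without a number, a mean of 32.7 ± 15.9 CPM (SD, n = 3). The last of these was the highest of the 50 libraries, and it also held the highest summed level of the green-tissue rows among root libraries, 108 CPM, and the part of green tissue in its value was not tested. The control-AI roots had 38.0, 31.2 and 18.6 CPM in replicates 1 to 3, a mean of 29.3 ± 9.85 CPM (SD, n = 3). The AI-roots had 26.6 and 18.5 CPM in replicates 2 and 3, a mean of 22.5 ± 5.75 CPM (SD, n = 2). The ranges of all 4 arms overlapped.

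In 11-day roots the libraries lay closer together. The control-AI roots had 19.2, 21.9, 20.5 and 21.6 CPM in replicates 1 to 4, a mean of 20.8 ± 1.23 CPM (SD, n = 4). The AI-roots had 21.2, 20.7, 20.7 and 19.0 CPM in replicates 2 to 5, a mean of 20.4 ± 0.984 CPM (SD, n = 4). Both arms thus lay in narrow ranges that overlapped. The control-AE roots had 18.8, 21.0 and 22.2 CPM in replicates 2, 4 and 5, a mean of 20.7 ± 1.72 CPM (SD, n = 3). The AE-roots had 30.8, 26.0, 32.7, 31.5, 24.5 and 28.9 CPM in replicates 1 to 6, a mean of 29.1 ± 3.26 CPM (SD, n = 6). Every AE-root library lay above the 3 control-AE libraries, a log2 difference of 0.48 (SE 0.12), which is the contrast on which the gene was chosen.

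Stems at 24 h held the lowest levels. The control-AE stems had 18.9 and 11.3 CPM in replicates 2 and 3, a mean of 15.1 ± 5.35 CPM (SD, n = 2). The AE-stems had 13.2, 12.4 and 10.9 CPM in replicates 1 to 3, a mean of 12.2 ± 1.14 CPM (SD, n = 3). In these arms a single library, control-AE replicate 2, exceeded the rest. The control-AI stems had 17.3 and 14.4 CPM in replicates 1 and 3, a mean of 15.9 ± 2.02 CPM (SD, n = 2). The AI-stems had 20.3 and 12.9 CPM in replicates 1 and 3, a mean of 16.6 ± 5.21 CPM (SD, n = 2), and they enclosed the range of their controls.

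Stems at 11 days ranged more widely. The control-AE stems had 32.0, 34.5 and 30.7 CPM in replicates 1, 2 and 4, a mean of 32.4 ± 1.92 CPM (SD, n = 3). The AE-stems had 33.2, 37.1, 20.8, 24.7 and 31.5 CPM in replicates 1, 3, 4, 5 and 6, a mean of 29.5 ± 6.60 CPM (SD, n = 5). All but AE replicates 4 and 5 were above 30 CPM in these arms. The control-AI stems had 23.6, 31.9 and 15.8 CPM in replicates 1 to 3, a mean of 23.8 ± 8.07 CPM (SD, n = 3). The AI-stems had 10.5 and 20.0 CPM in replicates 3 and 5, a mean of 15.2 ± 6.77 CPM (SD, n = 2). AI replicate 3 was the lowest library of the 50. These values rest on 75 to 583 counts of the gene per library, and 95% Poisson intervals for the least deep one, AE 11-day stem replicate 5, ran from 14.9 to 23.8 CPM before scaling. The SD of a group was more than 2 times the Poisson SD of its libraries in 9 of the 16 groups, while in 4 groups (control-AE 24 h roots, control-AI and AI 11-day roots, and control-AE 11-day stems) it was no larger than counting error alone gives.

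**Figure D1:**
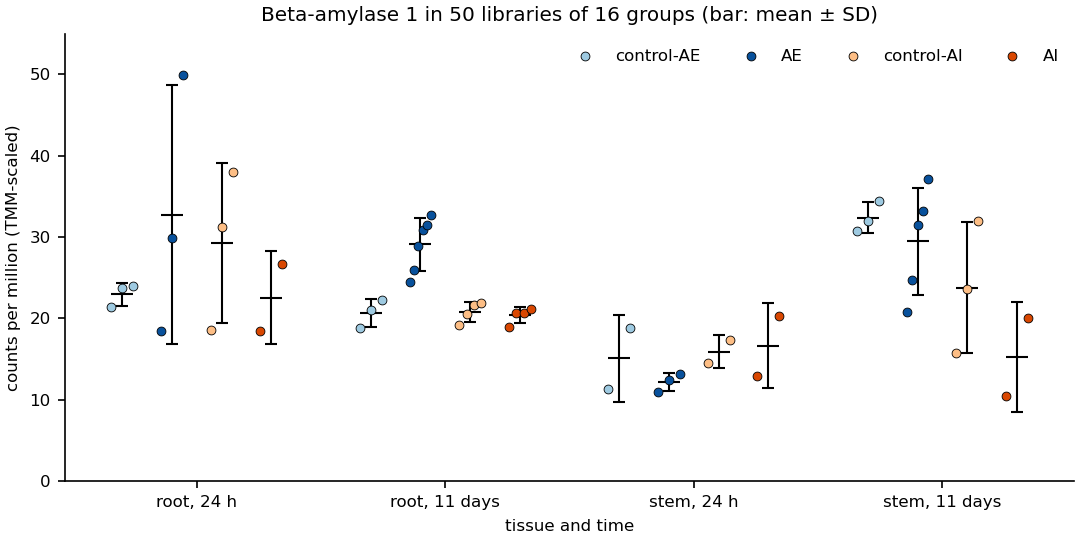
Beta-amylase 1 in CPM (TMM-scaled, linear axis from 0) in each of the 50 libraries, by tissue and time, with 1 colour for each arm; black bars give the mean and SD of each of the 16 groups. Stem libraries of 24 h sit between 10.9 and 20.3 CPM, most of them under the root libraries of 24 h, and stem libraries of 11 days spread from 10.5 to 37.1 CPM.

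In the order of the 16 group means, AE-roots of 24 h stood highest with 32.7 CPM, followed by control-AE stems of 11 days with 32.4 CPM, and AE-stems of 24 h stood lowest with 12.2 CPM. All 15 pairs of neighbours in that order overlapped in range and differed by less than the larger of their SDs, so no step between neighbours was resolved. The 4 groups of 24 h stems all fell among the 5 lowest means, together with AI-stems of 11 days.

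At 24 h, beta-amylase 1 was higher in roots than in stems. The 11 root libraries ranged from 18.4 to 49.9 CPM (median 23.9) and the 9 stem libraries from 10.9 to 20.3 CPM (median 13.2). Of the 9 stem libraries 7 lay below the lowest root library, and of the 11 root libraries 8 lay above the highest stem library, so the tissues overlapped in a few libraries only. With all arms weighted equally, the log2 difference of root minus stem was 0.84 (SE 0.15, 95% interval 0.53 to 1.15, edgeR adjusted p = 7.8e-06), or 1.79-fold. Most rows differed between these tissues, since 65.9% of the 27674 rows tested passed the same threshold, so the call by itself does not set the gene apart. The direction held within each arm, with ratios of root to stem means of 1.52 in control-AE, 2.69 in AE, 1.84 in control-AI and 1.36 in AI plants. RNA of whole tissue does not separate fewer cells of a type from less transcript per cell.

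At 11 days no difference between roots and stems was resolved over all arms, and the arms did not share a direction. The 17 root libraries ranged from 18.8 to 32.7 CPM (median 21.6) and the 13 stem libraries from 10.5 to 37.1 CPM (median 30.7), so the stem range enclosed the root range. The log2 difference of root minus stem was −0.10 (SE 0.13, 95% interval −0.36 to 0.15, edgeR adjusted p = 0.473), while 66.7% of rows passed. The ratios of root to stem means were 0.639 in control-AE, 0.987 in AE, 0.876 in control-AI and 1.34 in AI plants. In control-AE plants every stem library (30.7 to 34.5 CPM) lay above every root library (18.8 to 22.2 CPM), while in the other arms the ranges overlapped. The 3 lowest stem libraries belonged to the AI experiment, that is the AI and control-AI groups, and without AI 11-day stem replicate 5 the difference changed sign, to 0.03.

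Between 24 h and 11 days beta-amylase 1 rose in stems. Of the 13 stem libraries of 11 days, 10 lay above the highest stem library of 24 h, but 0 of the 9 libraries of 24 h lay below the lowest of 11 days. The log2 difference of 11 days minus 24 h was 0.70 (SE 0.15, 95% interval 0.40 to 1.01, edgeR adjusted p = 0.00298), or 1.63-fold, and 6.54% of rows passed the same test. In roots the difference was −0.24 (SE 0.13, 95% interval −0.50 to 0.02, edgeR adjusted p = 0.202), where 18.0% of rows passed, and leaving out 1 library gave −0.31 to −0.13, the last without the unnumbered AE 24 h library. Time cannot be told apart from plant age, the length of spraying, the day of harvest or a library batch, and the labels do not give day or batch. Spraying ran over 11 days per the study's methods. If both times count from the start of spraying, the 11-day plants of every arm, controls included, were sprayed for longer. The age of the 24 h plants and the number of their sprays are not given in the methods.

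The change with time therefore differed between the tissues. The difference of the root change minus the stem change was −0.94 on the log2 scale (SE 0.20, 95% interval −1.34 to −0.55, edgeR adjusted p = 0.00265), and 7.61% of rows passed that test. The 8 green-tissue rows had interactions of −0.67 to 0.05 and stem differences between the times of −0.27 to 0.19, and neither edgeR nor DESeq2 called one of them in either comparison. In 11-day stems the 3 libraries rich in ribosomal RNA had 32.0, 31.9 and 24.7 CPM, and without them the stem difference was 0.66 (adjusted p = 0.00899) and the interaction −0.90 (adjusted p = 0.00536).

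**Figure D2:**
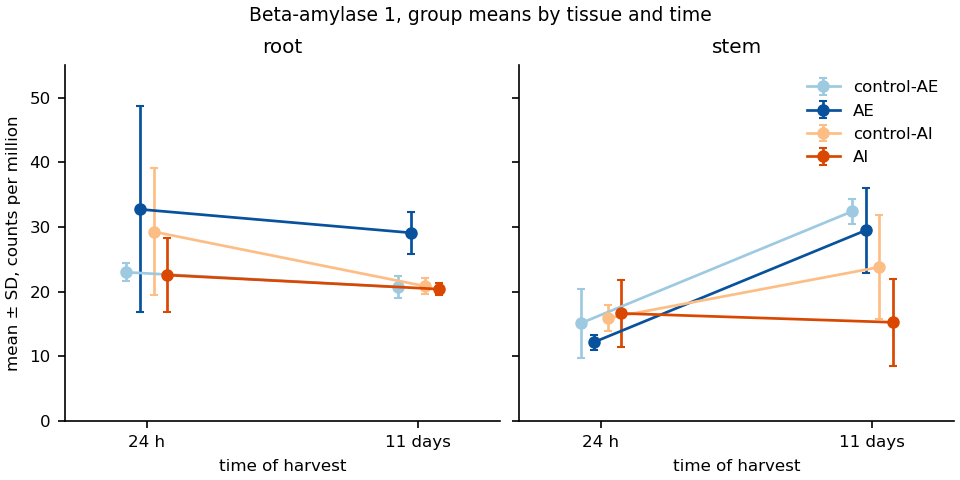
Group means of beta-amylase 1 with SD bars (n = 2 to 6) at 24 h and 11 days in roots and in stems, in CPM on a linear axis from 0, with 1 line for each arm. In stems the control-AE mean goes from 15.1 to 32.4 CPM and the AE mean from 12.2 to 29.5 CPM, while the AI mean goes from 16.6 to 15.2 CPM.

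The rise in stems was seen in the AE experiment, that is the AE and control-AE groups, and was not resolved in the AI experiment. The ratio of the 11-day to the 24 h stem mean was 2.15 in control-AE and 2.42 in AE plants, but 1.50 in control-AI and 0.917 in AI plants. Over the control-AE and AE groups alone, a comparison added after the values were seen, the stem difference was 1.19 (SE 0.20, 95% interval 0.79 to 1.60, edgeR adjusted p = 7.2e-05), with 12.6% of rows passing. Over the control-AI and AI groups alone it was 0.22 (SE 0.22, 95% interval −0.24 to 0.67, edgeR adjusted p close to 1.00), with 0.0253% of rows passing. The AE experiment minus the AI experiment gave 0.97 (SE 0.30, 95% interval 0.37 to 1.58), which had an unadjusted p of 0.00223 but an edgeR adjusted p of 0.126 and did not pass, where 0.546% of rows did.

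The interaction of tissue and time split in the same way. It was −1.35 (SE 0.26, edgeR adjusted p = 0.000702, 13.0% of rows passing) in the AE experiment and −0.54 (SE 0.29, 95% interval −1.13 to 0.06, edgeR adjusted p = 0.899) in the AI experiment. In the latter edgeR passed 0 of 27674 rows, though 1500 had an unadjusted p under 0.05, and DESeq2 was not run on it. Their difference was −0.82 (SE 0.39, edgeR adjusted p = 0.508, 0.00361% of rows passing). The root-over-stem difference at 24 h passed in both, with 1.02 (SE 0.21, edgeR adjusted p = 5.83e-05, 56.4% of rows) in the AE experiment and 0.66 (SE 0.22, edgeR adjusted p = 0.0122, 54.2% of rows) in the AI experiment, and these differed by 0.36 (SE 0.30, edgeR adjusted p = 0.705, 0.336% of rows). At 11 days it was −0.34 (SE 0.16, edgeR adjusted p = 0.0785, 57.6% of rows) and 0.13 (SE 0.19, edgeR adjusted p = 0.601, 55.6% of rows), which differed by −0.46 (SE 0.25, edgeR adjusted p = 0.407, 1.33% of rows). The change with time in roots did not pass in either, with −0.16 (SE 0.17, edgeR adjusted p = 0.56, 23.9% of rows) and −0.32 (SE 0.19, edgeR adjusted p = 0.595, 0.275% of rows), and a difference of 0.16 (SE 0.26, edgeR adjusted p = 0.82, 3.61% of rows). The AE and AI experiments hold different libraries throughout and share no control.

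**Figure D3:**
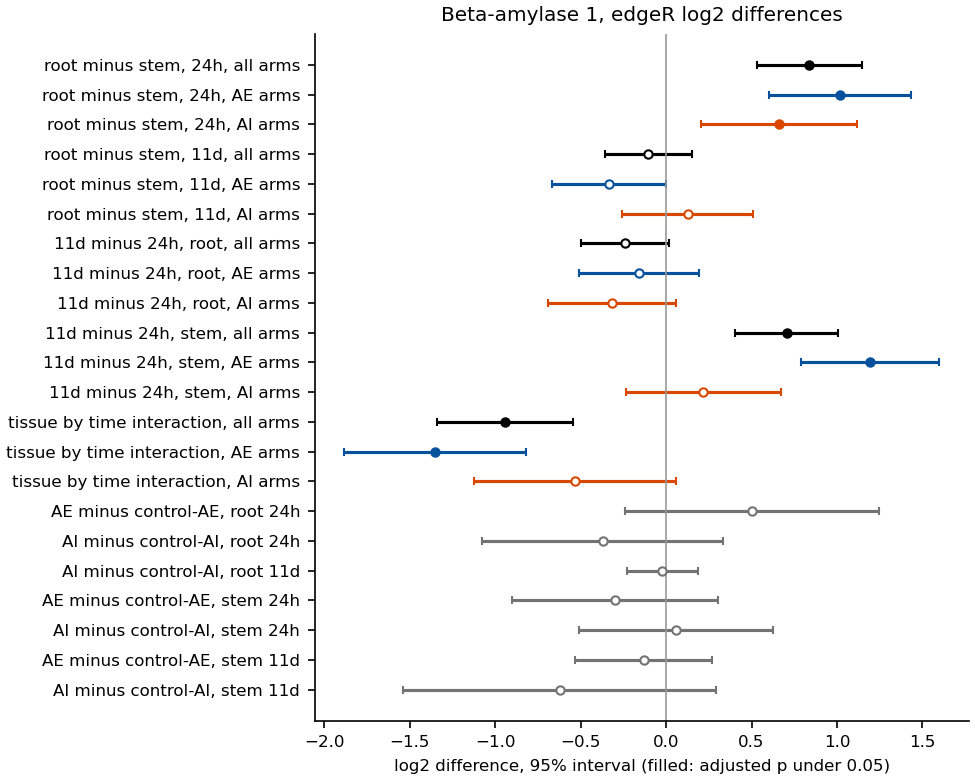
Log2 differences of beta-amylase 1 with 95% intervals from edgeR, over all arms (black), over the AE and control-AE groups (blue, AE arms) and over the AI and control-AI groups (orange, AI arms), and for 7 treatment comparisons (grey); filled points have an adjusted p under 0.05. The root minus stem difference at 24 h is filled in all 3 sets, at 0.84, 1.02 and 0.66, and the stem change with time is filled at 0.70 and 1.19 and open at 0.22.

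The next comparisons asked whether spraying changed the level in each tissue at each time apart from AE in 11-day roots. None of these 7 comparisons passed for beta-amylase 1. In roots, AE minus control-AE at 24 h was 0.50 (SE 0.32, 95% interval −0.24 to 1.24, edgeR adjusted p close to 1.00), and it ranged from 0.06 without the unnumbered AE library to 0.79 without AE replicate 1. AI minus control-AI was −0.37 in 24 h roots (SE 0.30, 95% interval −1.08 to 0.33, edgeR adjusted p = 0.789) and −0.02 in 11-day roots (SE 0.093, 95% interval −0.23 to 0.18, edgeR adjusted p = 0.994). The last interval was the narrowest of the 7. The 24 h value moved to −0.68 without AI replicate 2 and to −0.13 without AI replicate 3.

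In stems, AE minus control-AE was −0.30 at 24 h (SE 0.25, 95% interval −0.90 to 0.30) and −0.13 at 11 days (SE 0.18, 95% interval −0.53 to 0.27), and AI minus control-AI was 0.06 at 24 h (SE 0.24, 95% interval −0.51 to 0.63), each with an edgeR adjusted p close to 1.00. The largest of the stem values was that of AI at 11 days, −0.62 (SE 0.39, 95% interval −1.54 to 0.29, edgeR adjusted p = 0.72). It moved to −0.36 without control-AI replicate 2, to −0.23 without AI replicate 3, to −1.16 without AI replicate 5 and to −0.04 with the libraries below the minimum added. Leaving out 1 library turned the sign of the AE value in 24 h stems (control-AE replicate 2, to 0.10), of the AI value in 24 h stems (AI replicate 1, to −0.28, or control-AI replicate 3, to −0.05) and of the AI value in 11-day roots (AI replicate 5, to 0.01). Over all rows, edgeR called 0 of 22107 to 23395 rows, which is 0%, in 6 of the 7 comparisons and 3 rows, or 0.0127%, for AI in 11-day stems, while 343 to 2130 rows had an unadjusted p under 0.05 and DESeq2 called 0 to 352.

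Exact two-sided permutation tests of log2 CPM gave p from 0.4 to 1 for these 7 comparisons before adjustment, and the ranges of treated and control libraries overlapped in each. The smallest p that the library numbers allow lay between 0.0179 and 0.333, so that 5 of the 7 could not have passed 0.05 in this test. The 3 comparisons of control-AE with control-AI other than that in 11-day roots belong to the same family of 10 tests, and after adjustment every p was at least 0.679.

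Control-AE and control-AI plants received the same solution. Control-AE minus control-AI was −0.35 in 24 h roots (SE 0.27, edgeR adjusted p = 0.547, 1.37% of rows passing), −0.07 in 24 h stems (SE 0.33, edgeR adjusted p = 0.999, 0% of rows passing) and 0.47 in 11-day stems (SE 0.27, 95% interval −0.08 to 1.01, edgeR adjusted p = 0.882, 0.00723% of rows passing). For 24 h stems, where edgeR called 0 rows, 1907 rows had an unadjusted p under 0.05 and DESeq2 called 41. In 11-day roots, where the control-AE libraries are those of the contrast on which the gene was chosen, the value was −0.01 (SE 0.25) and is a description. It turned to 0.05 without control-AE replicate 2 and to 0.02 without control-AI replicate 2 or 4. Leaving out 1 library gave −0.59 to −0.11 in 24 h roots and 0.23 to 0.72 in 11-day stems, and the 24 h stem value turned to 0.25 without control-AE replicate 3 and to 0.06 without control-AI replicate 1.

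The differences between treatment changes were tested themselves. The AE change in 24 h roots minus that in 24 h stems was 0.82 (SE 0.40, 95% interval 0.00 to 1.63), with an unadjusted p of 0.0491 and an edgeR adjusted p close to 1.00, and leaving out 1 library gave 0.38, without the unnumbered AE root library, to 1.14, without control-AE stem replicate 3. The AI change in roots minus that in stems was −0.44 at 24 h (SE 0.45, edgeR adjusted p close to 1.00) and 0.59 at 11 days (SE 0.38, edgeR adjusted p = 0.793, 0.0542% of rows passing). From 24 h to 11 days the AI change moved by 0.34 (SE 0.38) in roots and by −0.69 (SE 0.45, edgeR adjusted p = 0.797, 0.0181% of rows passing) in stems, and the AE change moved by 0.18 (SE 0.39, 0.0578% of rows passing) in stems, which became −0.24 without control-AE 24 h stem replicate 2. Leaving out 1 library gave ranges of the AI values from −0.73 to −0.08 and from 0.20 to 1.13 for roots minus stems at 24 h and at 11 days, and from 0.10 to 0.63 and from −1.23 to −0.29 for the moves with time in roots and in stems. Beta-amylase 1 passed in none of the 6, and in 3 of them edgeR called 0 rows, with 576 to 900 at an unadjusted p under 0.05 and 2 called by DESeq2 in each.

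Other rows of starch metabolism were read beside it. Product names were at hand for 1880 of 62007 rows, those ranked high for the AE change in 11-day roots, so the lists are partial and their rows were in effect picked by that contrast. The libraries of that contrast also enter root minus stem at 11 days, the change with time in roots and the interaction. Among the named rows, 3 are annotated as beta-amylases. Gene 18107014, named beta-amylase, was lower in roots than in stems at 24 h (log2 difference −1.39, edgeR adjusted p = 0.00726) and at 11 days (−1.34, edgeR adjusted p = 0.00195). Gene 7454257, inactive beta-amylase 9, whose Arabidopsis counterpart lacks catalytic activity, was lower in roots at 24 h (−0.66, edgeR adjusted p = 0.0172) and at 11 days (−0.58, edgeR adjusted p = 0.0122). Of the 3, beta-amylase 1 alone was higher in roots at 24 h, while between the times in stems 18107014 had −0.003 (adjusted p close to 1.00) and 7454257 had −0.75, with an adjusted p just above 0.05, where beta-amylase 1 had 0.70.

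As levels per kilobase of transcript, in CPM per kilobase and averaged over the arms, beta-amylase 1 had 12.1 in 24 h roots, 10.2 in 11-day roots, 6.71 in 24 h stems and 11.3 in 11-day stems. The inactive beta-amylase 9 stood far higher, with 254, 163, 397 and 249 in the same order. Gene 18107014 had 11.4, 12.0, 27.4 and 26.7, with single libraries from 2.05 to 59.5, so its libraries varied more than those of beta-amylase 1, which ran from 4.70 to 22.4. In roots the levels of these last genes overlapped, and in 24 h stems the mean of beta-amylase 1 was the lowest of the 3.

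Of the 4 other breakdown rows with a name, all 4 were lower in roots than in stems at 24 h and none was higher, beside 33.2% of all rows that were lower, with a median log2 difference of −0.97, where the median of all rows was −0.01. Phosphoglucan, water dikinase (7496305), which phosphorylates starch so that its granules can be attacked, was lower by −1.29 (edgeR adjusted p = 6.78e-12). The 4 synthesis rows were also all lower in roots, with a median of −0.66, and among them phosphoglucomutase (7482159), which makes the glucose 1-phosphate that enters starch synthesis in the plastid, had −0.96 (edgeR adjusted p = 8.96e-12). Beta-amylase 1, with 0.84, was thus the one named starch row that was higher in 24 h roots. Within the AE experiment 3 of the 4 breakdown rows still passed as lower, beside 28.1% of all rows, and within the AI experiment 2 did, beside 27.4%, with all 4 below 0 in each, and all 4 synthesis rows passed in both.

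Between the times in stems, 0 of the 4 breakdown rows rose and 1 fell, with a median of −0.24, and 0 of the 4 synthesis rows passed in either direction, with a median of 0.16. Of all rows 3.38% rose and 3.17% fell, and their median was 0.01. Over the 12 other settings 0 to 1 breakdown rows rose and 0 to 2 fell, and 0 to 1 synthesis rows rose. In the AI experiment 0 breakdown rows fell, but only 0.0253% of all rows fell and 0% rose there. In the AE experiment 1 breakdown row rose and 2 fell, where 6.39% of all rows rose and 6.25% fell. The row that fell over all arms was plastidic glucose transporter 4 (18099475), named here after its values were seen, which carries glucose out of the plastid. It had −0.48 (edgeR adjusted p = 7.26e-05) in stems and an interaction of 0.62 (edgeR adjusted p = 0.000268), opposite in sign to beta-amylase 1 in both. In roots between the times 4 of 4 synthesis rows rose, 1 of 4 breakdown rows rose and 1 fell. Of all rows 10.1% rose and 7.92% fell there, and beta-amylase 1 did not pass. This comparison holds the AE-root and control-AE root libraries of 11 days, by whose contrast these rows were in effect picked. The counts are therefore a description. The synthesis count went to 0 of 4 in the AI experiment, where only 0.0361% of all rows rose, so that count says little about these rows. In the AE experiment, with 4 of 4, 13.1% of all rows rose. The count went to 1 of 4 with all libraries, where 3333 of 26932 rows passed in either direction. With a replicate block it was 3 of 4, where 3938 of 27670 rows passed, and it was 4 of 4 in the other 9 settings.

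**Figure D4:**
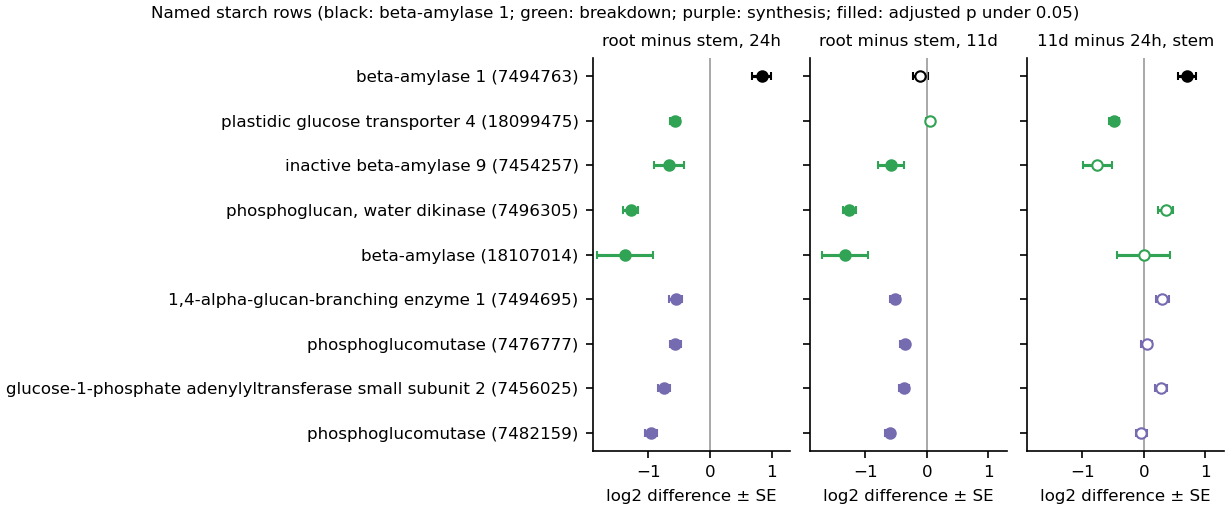
Log2 differences with SE from edgeR for the 9 named rows of starch breakdown (green, with beta-amylase 1 in black) and starch synthesis (purple), for root minus stem at 24 h and at 11 days and for 11 days minus 24 h in stems; filled points have an adjusted p under 0.05. Beta-amylase 1 lies at 0.84, −0.10 and 0.70, and the 8 other rows lie between −1.39 and −0.56 for root minus stem at 24 h.

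The treatments did not pass for these lists either. In the 7 treatment comparisons edgeR and DESeq2 each called 0 of the 8 other starch rows, and of these 56 tests 2 had an unadjusted p under 0.05 by edgeR and 3 by DESeq2, where 4.65% of all edgeR tests in these comparisons did (1.55% to 9.02% by comparison). Their list medians ran from −0.45 for breakdown rows under AE in 24 h roots to 0.43 for breakdown rows under AI in 11-day stems. In both of these comparisons the value of beta-amylase 1 had the opposite sign, 0.50 and −0.62, and neither passed.

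The rows whose group means followed beta-amylase 1 most closely were found by Pearson correlation of mean log2(CPM + 0.5) over the 16 groups among 22749 rows. The closest was gene 7495190 with r = 0.89, then 112323877, named glycine-rich protein 23-like, with r = 0.89. Next came genes 7497566, 7494361 and 7467034 with r = 0.88, 0.88 and 0.87, and 69 rows reached 0.8. Gene 112323877 was at a low level, from 1.44 CPM in 24 h stems to 2.82 CPM in 11-day stems. Over the 50 single libraries these 5 had r between 0.53 and 0.64, with 0.65 to 0.75 over the stem libraries and −0.14 to 0.52 over the root libraries. The likeness thus lay mostly in stems, and since these points share libraries, depth and tissue, the correlations are a description. Gene 7495190 had 65.9 CPM in 24 h stems, 96.9 CPM in 11-day stems, 90.7 CPM in 24 h roots and 85.1 CPM in 11-day roots, an order in which the 24 h stems again stood lowest.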

How the data were processed

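The counts deposited by the authors are whole reads per transcript row, without normalization. Per the study's methods, reads were trimmed and mapped to the genome of Populus trichocarpa before counting. The submitters' processing notes name FastQC, STAR, Subread and featureCounts. No genome was used here, and product names come from the study's own annotation. Libraries below 1000000 counts were left out, which kept 50 of 64 libraries (3947526 to 21094004 counts). Replicates were compared by chi-square over rows in 63 pairs, and the lowest value per degree of freedom was 5.21, so none was counted as a repeat.

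Each treatment was compared with its control in a fit of their own, and other contrasts in a joint fit of 16 groups, with the quasi-likelihood test of edgeR 4.0.16 (R 4.3.3) after TMM scaling and filterByExpr at 10 counts. The p-values were adjusted over all rows tested (Benjamini-Hochberg, 0.05). SE is the log2 difference over the root of F. CPM are scaled by TMM, and 0.5 was added before the logarithm. Alternatives were DESeq2 1.42.0, median-of-ratios factors, no filter, other sets of libraries or groups, summed counts per gene identifier, a replicate block and each library left out. Tables and plots were made with Python 3.11.15, pandas 2.3.3, scipy 1.17.1 and matplotlib 3.10.9.

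The named genes are beta-amylase rows, the 5 rows closest in pattern, and up to 3 starch rows in each direction that passed in root minus stem at 24 h. The gene and the lists were chosen with earlier results of these data known. Precision of a single library is a 95% Poisson interval and covers counting error only.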

Additional observations from a re-analysis of the deposited data

Results flagged for a closer look

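The change of beta-amylase 1 between 24 h and 11 days differed between tissues by the test of the difference itself, with a root change minus stem change of −0.94 on the log2 scale (SE 0.20, edgeR adjusted p = 0.00265). No library stood far from the others of its group by Dixon's limits in the 4 groups with 4 to 6 libraries. These were AE-roots, AI-roots, control-AI roots and AE-stems, all of 11 days. The other groups, with 2 or 3 libraries each, were not tested in this way. They were all 24 h groups and, at 11 days, control-AE roots, control-AE stems, control-AI stems and AI-stems. The tissue, time and arm of a library are all that the labels give, so plant age, length of spraying, day of harvest and batch cannot be told apart from time.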

How the results depend on the processing

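The root over stem difference at 24 h passed in all 12 other settings (log2 0.66 to 1.02), and in all 20 fits without 1 library (0.73 to 0.94). The stem change with time passed in all 22 such fits (0.57 to 0.81) and the interaction in all 50 (−1.05 to −0.81). Over the AI and control-AI groups alone, a setting added after the data were seen, the stem change was 0.22 and the interaction −0.54, neither passing, while in the remaining settings both passed, and root minus stem at 11 days turned to 0.13. The cause was not tested.

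Over the libraries labelled acceptable, the described AE difference in 11-day roots was 0.33 in place of 0.48, since replicate 3 of 120199 counts replaces replicate 2, and control-AE minus control-AI in 11-day roots turned to 0.11, and without a filter to 0.00216. Leaving out 1 library at a time gave ranges that crossed 0 in several comparisons. These were AI in 11-day roots (−0.060 to 0.013) and AE in 24 h stems (−0.62 to 0.10). AI in 24 h stems (−0.28 to 0.33) and the controls in 24 h stems (−0.49 to 0.25) crossed 0 as well. So did root minus stem at 11 days (−0.20 to 0.030) and the AE change between times in stems (−0.24 to 0.50). None of these passed. The control difference in 11-day roots, which carries no test, also crossed 0 (−0.061 to 0.053). The AE value in 11-day stems went from −0.21 to −0.03. Where an arm was left with 1 library, it was assumed to vary like the other groups. The closest row in pattern had r = 0.61 over libraries in place of 0.89 over groups.

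For libraries with the same number, the correlation of their deviations was read in each comparison with 3 or more pairs. Its lowest value was −0.31 to 0.0092 by comparison. In AE and control-AE 11-day roots all 3 pairs lay above 0, from 0.0092 to 0.39. The numbers were not taken to pair plants, and comparisons with 1 or 2 pairs could not decide this. With the number as a replicate block, root minus stem at 24 h was 0.67 (adjusted p = 6.78e-05), the stem change 0.70 and the interaction −0.78, which still passed, and AE in 24 h roots was 0.05 without the unnumbered library, AI in 24 h roots −0.12 and the root change with time −0.08, none of which passed. The block raised the rows called for AE in 11-day stems from 0 to 704 and lowered those of the stem change from 1810 to 1206, and it could not be fitted for AI in 11-day stems, which share 1 number. DESeq2 called 352 rows for AI in 11-day stems where edgeR called 3. Depth limits the low libraries to at most 16 counts of the gene.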

Other observations

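The 14 libraries below the minimum were left out of every comparison above, and together they held 83 counts of beta-amylase 1 in 2715915, or 30.6 CPM (95% Poisson interval 24.3 to 37.9, counting error only). By tissue and time they gave 46.7 CPM from 7 counts of 1 library in 24 h roots, 17.9 CPM from 8 counts of 3 libraries in 11-day roots, 28.9 CPM from 13 counts of 3 libraries in 24 h stems (interval 15.4 to 49.5) and 32.9 CPM from 55 counts of 7 libraries in 11-day stems (interval 24.8 to 42.9). The 24 h stem value lay above the 20.3 CPM of the highest deep library of that tissue and time, though its interval reached below it. These values are not scaled by TMM. The AI 11-day stem libraries among them, replicates 1, 2 and 4, had 29.3, 39.7 and 30.2 CPM from 16, 9 and 5 counts. All of them lay above the 2 deep libraries of their group, with 10.5 and 20.0 CPM. Their 95% Poisson intervals began at 16.8, 18.1 and 9.81 CPM and so reached below the higher of these. Replicate 1, the deepest of them with 545250 counts, held 32.0% large-subunit ribosomal RNA.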
